A study of Mus musculus with 9 samples.

Results

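Immunoglobulin gene segments were followed in the lungs of mice with bleomycin injury, with and without homoharringtonine. The members are all probe sets whose gene symbol names a variable, joining or constant segment of the heavy chain locus (Igh), the kappa light chain locus (Igk) or the lambda light chain locus (Igl). There were 40 such probe sets with 37 symbols, of 41345 probe sets on the array. Of the 40, 16 belonged to Igh, 21 to Igk and 3 to Igl. Symbols came from the authors' deposited tables of changed probe sets, which name 2010 of the 2129 probe sets they hold. Every member had therefore already been listed by the authors as different in at least 1 comparison, and immunoglobulin segments without such a listing carry no name here. The counts of members below describe these 40 and are not independent evidence of a direction.

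The arrays measured total RNA of whole lung from male C57BL/6J mice, 11 weeks old in the sample labels, with 3 samples a group. Mice were instilled through the trachea at 8 weeks, and intraperitoneal injections began 5 days later and were given 2 times a week for 15 days. The vehicle group carries the label vehicle-treated, and the protocol names PBS as the control instillation. The bleomycin group received 2 U/kg bleomycin, an antitumour antibiotic that breaks DNA and scars the lung. The homoharringtonine group received the same bleomycin and then 0.545 mg/kg homoharringtonine (HHT), a plant alkaloid that inhibits protein synthesis and is used against leukaemia. Injections of HHT started after bleomycin for all 3 samples of that group, and no group received HHT without bleomycin.

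A B cell builds each antibody chain by joining 1 variable segment to a joining segment (with a diversity segment between them in the heavy chain) and splicing the result to a constant region. Naive B cells carry mu and delta heavy chains, and activated cells can switch to gamma, alpha or epsilon constant regions. Plasma cells, the secreting end of the lineage, hold far more immunoglobulin RNA per cell than resting B cells. A constant-region probe set therefore reads all B lineage cells that use that constant region, whereas a variable-segment probe set reads the clones that chose that segment and its close relatives.

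The heavy chain members lay on chromosome 12, the kappa members on chromosome 6 and the lambda members on chromosome 16 in the authors' annotation. No source used here names its genome build. Ighm, the mu constant region, was measured by 22 probes between 113420867 and 113422730 on the minus strand of chromosome 12. Ighg2c, the gamma 2c constant region, lay between 113285325 and 113288930 on the same strand. Iglc3, a lambda constant region, lay between 19065234 and 19067173 on chromosome 16. Symbols did not always describe the place: 7 members lay at another segment, or across several, when set on RefSeq's genes. A probe set named Igkv6-23 lay at Igkc, the kappa constant region, between 70726435 and 70726757 on chromosome 6, and a second one named Ighm lay at the joining segment Ighj1. One named Igh-VJ558 spanned 638275 bases and 66 annotated segments. These are called below by the symbol and the place, as in Igkv6-23 at Igkc. RefSeq classes the segments under Ighv7-3 and Igkv14-126 as pseudogenes.

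Variable segments resemble one another, so a probe set can read several. The array's annotation gives 16 members cross-hybridisation type 1, which marks probes unique to 1 transcript, and 24 members type 3, which marks mixed probes. Ighv1-62-2 and Ighv1-71 held identical values on all 9 arrays and are counted as 2 of the 40 below. Taken as 1, they lower by 1 each count of members with a higher mean or 2-fold or more higher with HHT: 37 and 29 against bleomycin, 34 and 22 against vehicle. The 31 members lower after bleomycin become 30, the 27 at an unadjusted p under 0.05 with HHT against bleomycin become 26, and the 16 higher without overlap with HHT against vehicle become 15. Other counts that hold this pair keep it as 2, among them those of listed members, of a large SD and of the lowest array. Values are log2 signals. Array medians ran from 4.49 to 4.57 and lower quartiles from 3.21 to 3.24. Of 8 lung markers 3 were named, and Sftpa1, a surfactant protein, lay between 10.18 and 11.41 over the 9 arrays. The number of arrays limits the precision. The labels number the samples of each group without saying more of their origin, so p-values measure the spread between these samples. Each sample is called a lung or a mouse here, though the labels do not say that each came from 1 animal.

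In bleomycin lung the constant region of IgM, a lambda constant region, a joining segment of kappa and 2 variable segments fell, and the members stood lower at the median. By limma 5 of 40 members were called, all lower (adjusted p under 0.05), beside 7.78% of all probe sets called and 4.42% called lower. The 2010 named probe sets, selected by the same listing as the members, were called more often, 47.0% lower and 33.2% higher. Their group mean was lower for 56.7%. The median difference over members was -0.44 on the log2 scale, against 0.02 over all probe sets. The group mean was lower for 31 of 40 members (47.4% of all probe sets), 10 were 2-fold or more lower (2.32%) and 1 was 2-fold or more higher (1.14%). In whole tissue, fewer B lineage cells and less immunoglobulin RNA per cell cannot be told apart.

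Ighm read 9.01, 8.90 and 8.83 in the vehicle lungs and 7.59, 6.67 and 5.84 in the bleomycin lungs. Every bleomycin lung lay below every vehicle lung. Ighm fell by 2.21 (SE 0.38), a 4.63-fold decrease, with an adjusted p of 0.0117 in limma. Iglc3 read 6.67, 7.35 and 7.13 with vehicle and 5.20, 5.11 and 5.17 with bleomycin. The bleomycin lungs were almost level and clear of the vehicle lungs, 3.70-fold lower (SE 0.26 in log2, limma adjusted p = 0.00492). Iglv3, 1 of the few lambda variable segments of the mouse, read 5.43, 5.11 and 5.52 with vehicle and 4.22, 3.79 and 3.75 with bleomycin, again without overlap. Its decrease was 2.70-fold (SE 0.22 in log2, limma adjusted p = 0.00876).

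Igkj3, annotated at a joining segment of kappa, read 6.31, 6.78 and 7.05 with vehicle and 5.12, 5.07 and 4.59 with bleomycin. The groups did not overlap, and the decrease was 3.46-fold with the smallest adjusted p among the 40 members (0.00263 in limma). Igkv17-127, a kappa variable segment, read 4.07, 3.55 and 4.42 with vehicle and 2.61, 2.42 and 3.18 with bleomycin. All of these bleomycin values lay below the lower quartile of probe set means (3.24). The 2 groups were apart on every array, and Igkv17-127 fell by 1.27 (limma adjusted p = 0.0229). That call was lost without vehicle 1, vehicle 3, bleomycin 1 or bleomycin 2, with adjusted p between 0.0537 and 0.0834 in limma. The other 4 calls held when any 1 array was left out.

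**Figure D1:**
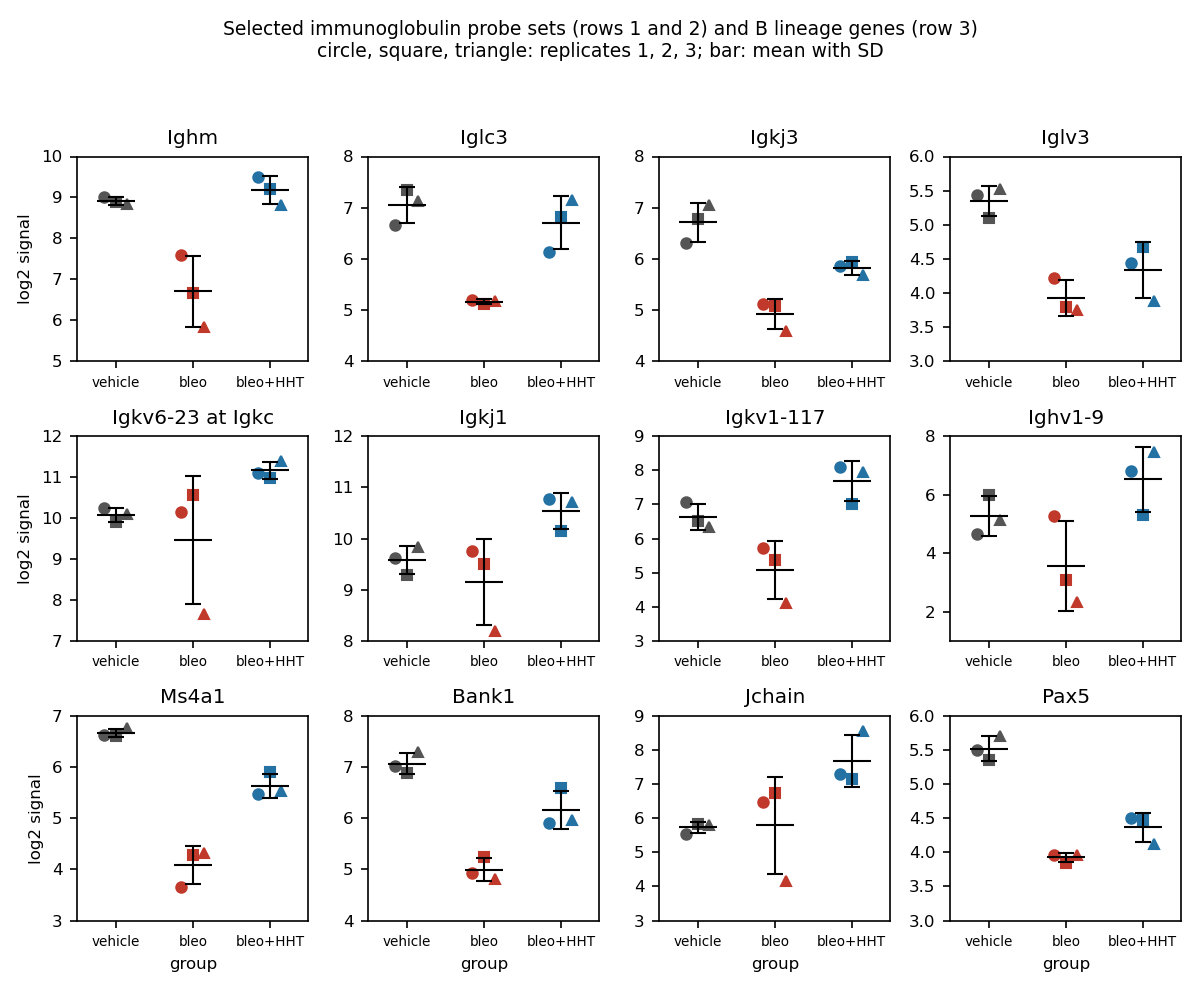
Log2 signal on each of the 9 arrays (vertical axis) for selected immunoglobulin probe sets and for B lineage genes, 1 panel each, with arrays grouped along the horizontal axis by vehicle, bleomycin and bleomycin with HHT. Points are arrays, and bars are group means with SD. Ighm drops from 8.83 or more with vehicle to 7.59 or less with bleomycin, and returns to 8.81 or more with HHT.

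The remaining 35 members did not pass the test against vehicle. Ighg2c was the constant region with the opposite sign. It read 5.28, 4.88 and 4.72 with vehicle and 5.90, 5.76 and 5.74 with bleomycin, so that all 3 bleomycin lungs stood above all 3 vehicle lungs. The difference was 0.84 with a limma adjusted p of 0.107. It passed in the fit of the 6 compared arrays alone (adjusted p = 0.0370 in limma). It also passed without HHT 1 (limma adjusted p = 0.0480) and without HHT 2 (limma adjusted p = 0.0452), and in no other setting. Igkv6-23 at Igkc, singled out for its place in the kappa constant region, read 10.24, 9.90 and 10.11 with vehicle and 10.14, 10.56 and 7.66 with bleomycin. Bleomycin 1 and 2 sat among or above the vehicle lungs and bleomycin 3 sat far below them (difference -0.63, limma adjusted p = 0.602). Ighm at Ighj1 read 8.62, 8.27 and 8.45 with vehicle against 8.89, 8.65 and 7.63 with bleomycin, and the groups overlapped (difference -0.06). Igkj1, also chosen after its values were seen, read 9.61, 9.29 and 9.84 against 9.75, 9.50 and 8.19, with only bleomycin 3 below the vehicle range (difference -0.43).

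Variable segments varied in the same comparison between -1.71 at Ighv1-9 and 1.27 at Igkv4-59. Ighv1-9 read 4.67, 6.00 and 5.15 with vehicle and 5.28, 3.07 and 2.34 with bleomycin, so bleomycin 1 overlapped the vehicle lungs (limma adjusted p = 0.241). Igkv1-117 read 7.07, 6.51 and 6.34 with vehicle and 5.73, 5.38 and 4.11 with bleomycin. Its groups did not overlap, and the difference of -1.57 had a limma adjusted p of 0.0673. Igk-V1 at Igkv1-110 read 6.24, 7.00 and 6.72 with vehicle and 6.42, 5.25 and 3.58 with bleomycin, which overlapped (difference -1.57, limma adjusted p = 0.241). Igkv4-59, named for being the highest, read 4.51, 6.99 and 2.65 in bleomycin lungs that spanned its vehicle range of 3.36 to 3.58. Across members 11 were lower without overlap, where 14.1% of all probe sets were, and 3 were higher without overlap, where 13.9% were. The 3 were Ighg2c, Ighv10-3 and Igkv6-23. Igkv6-23 was the dimmest of all members, with a mean of 2.46 over the 9 arrays.

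A single lung carried much of the median. Against the vehicle means, the median member stood at -0.01 in bleomycin 1, at -0.08 in bleomycin 2 and at -1.22 in bleomycin 3. Bleomycin 3 was the lowest of its group for 31 of 40 members (77.5%), as for 30.97% of all probe sets. Only 4 members lay above their vehicle mean in that lung, beside 20 and 19 in bleomycin 1 and 2. Without bleomycin 3 the median difference was -0.11 instead of -0.44, and 20 members instead of 9 had a higher group mean than with vehicle (52.6% of all probe sets did with every array in). Without bleomycin 2 the median difference was -0.74. Groups separate more easily with fewer arrays. Members lower without overlap numbered 17 without bleomycin 1 (20% of all probe sets) and 16 without bleomycin 2 (17.9%), and members higher without overlap numbered 10 without bleomycin 3 (18.3%). The 5 called members were low in all 3 bleomycin lungs, at medians of -1.40, -1.64 and -1.88. They were picked by their call on these same arrays, which favours low values in all 3 lungs, so these medians only describe them.

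**Figure D2:**
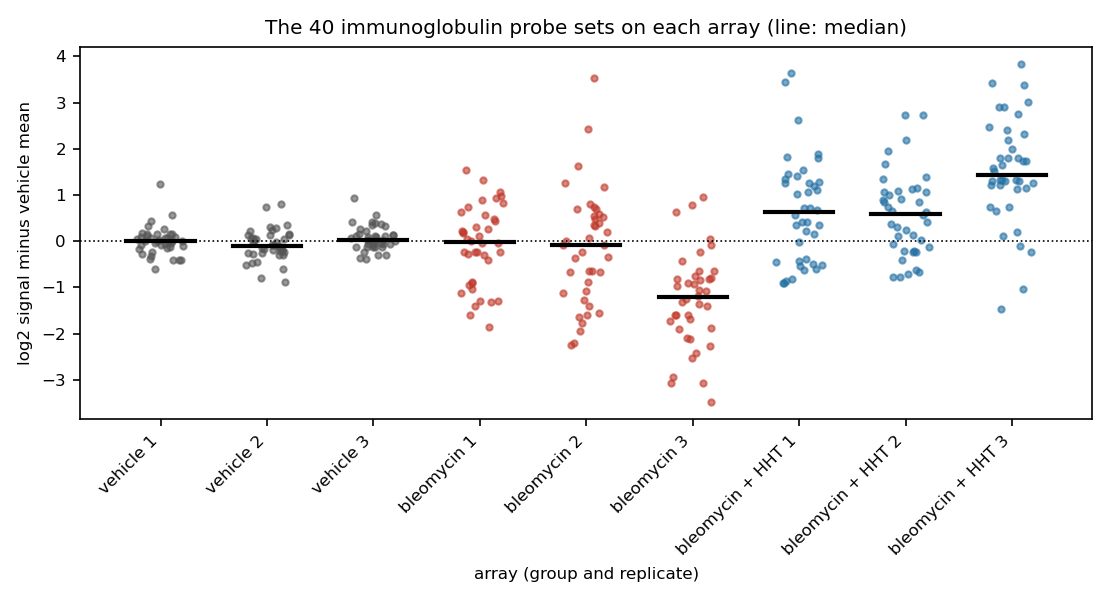
Log2 signal minus the vehicle mean of the same probe set (vertical axis) on each of the 9 arrays (horizontal axis); points are the 40 immunoglobulin probe sets and lines their medians. The median is near 0 in bleomycin 1 and 2 (-0.01 and -0.08) and at -1.22 in bleomycin 3, and the HHT lungs lie at 0.63, 0.59 and 1.43.

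With HHT after bleomycin, 38 of 40 members had a higher group mean than with bleomycin alone (49% of all probe sets did), and 30 were 2-fold or more higher (0.464% of all probe sets). No member was called by limma (adjusted p under 0.05), where 0.0943% of all probe sets were. Of the 2010 named probe sets, 0.498% were called higher and 0.995% lower, and 57.5% had a higher mean. At an unadjusted p under 0.05, limma counted 27 members, all higher, beside 11.1% of all probe sets in either direction and 4.98% higher. The authors' deposited table, made with a local pooled error test, lists 22 members, all higher, among 116 probe sets (0.281% of the array, and 0.121% listed higher). The smallest fold among these 22 was 2.06. This listing helped to name the members, so it fills part of the 2-fold count. The median over members was 1.53, against -0.00 over all probe sets. At each locus the median was close to that: 1.61 for Igh, 1.51 for Igk and 1.54 for Igl.

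Ighm read 9.49, 9.22 and 8.81 with HHT, above all 3 bleomycin lungs (7.59, 6.67 and 5.84). The difference was 2.47, or 5.54-fold, with a limma adjusted p of 0.0682. Without bleomycin 1 it passed (adjusted p = 0.0137 in limma). Igh-VJ558 at Ighv5-4, which had the smallest limma p of the 40 here, read 4.54, 3.92 and 3.74 with bleomycin and 6.22, 5.64 and 5.45 with HHT. The groups were well apart, and the difference of 1.71 had a limma adjusted p of 0.0597, or 0.0229 without bleomycin 1. Igkv1-117 read 8.09, 7.00 and 7.96 with HHT, all above its bleomycin values, a 6.12-fold difference with a limma adjusted p of 0.0803. Iglc3 read 6.14, 6.82 and 7.15, again above every bleomycin lung, with a difference of 1.54 (limma adjusted p = 0.0792).

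Ighv1-9 had the largest fold of the 40 in this comparison. It read 6.82, 5.30 and 7.47 with HHT against 5.28, 3.07 and 2.34 with bleomycin. HHT 2 and bleomycin 1 were nearly level, and the 7.81-fold difference had a limma adjusted p of 0.202. Igkv14-126, on a pseudogene, read 4.92, 3.04 and 6.93 with HHT against 2.67, 2.42 and 2.13 with bleomycin and 2.99, 2.80 and 3.49 with vehicle. The HHT lungs spread over a wide range above the bleomycin lungs, and the 5.87-fold difference had a limma adjusted p of 0.267. All of its bleomycin values lay below the lower quartile of probe set means (3.24). Ighv1-42 read 7.83, 4.84 and 5.49 with HHT against 4.81, 3.83 and 3.54 with bleomycin and 4.26, 3.73 and 4.56 with vehicle, where HHT 1 stood apart from the other two (limma adjusted p = 0.328). Igk-V1 at Igkv1-110 read 6.02, 7.54 and 8.18, with HHT 1 below bleomycin 1 (difference 2.17, limma adjusted p = 0.312).

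The constant and joining segments behaved alike in sign, apart from Ighg2c. Igkv6-23 at Igkc read 11.11, 10.99 and 11.39 with HHT, above its highest bleomycin lung of 10.56 (difference 1.71, limma adjusted p = 0.357). Ighm at Ighj1 read 9.15, 9.44 and 9.59, above a bleomycin maximum of 8.89 (difference 1.01, limma adjusted p = 0.243). Igkj1 read 10.77, 10.14 and 10.72, above a bleomycin maximum of 9.75 (difference 1.40, limma adjusted p = 0.212). None of these 3 pairs of groups overlapped. Ighg2c read 6.30, 5.08 and 5.71 with HHT around bleomycin values of 5.74 to 5.90 (difference -0.10, limma adjusted p = 0.932). Ighg2c and Igkv4-59 were the 2 members with a lower mean in HHT lungs.

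Across members 22 were higher without overlap and 0 were lower without overlap, where 6.19% and 7.79% of all probe sets were. The members were named by their listing as changed, so these counts only describe them. Bleomycin 3 and HHT 3 again weighed on the sizes. Without bleomycin 3 the median was 1.06 and 22 members were 2-fold or more higher. Without HHT 3 it was 1.03 with 21 members 2-fold or more higher. The number of members with a higher mean stayed between 37 and 39 whichever array was left out.

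**Figure D3:**
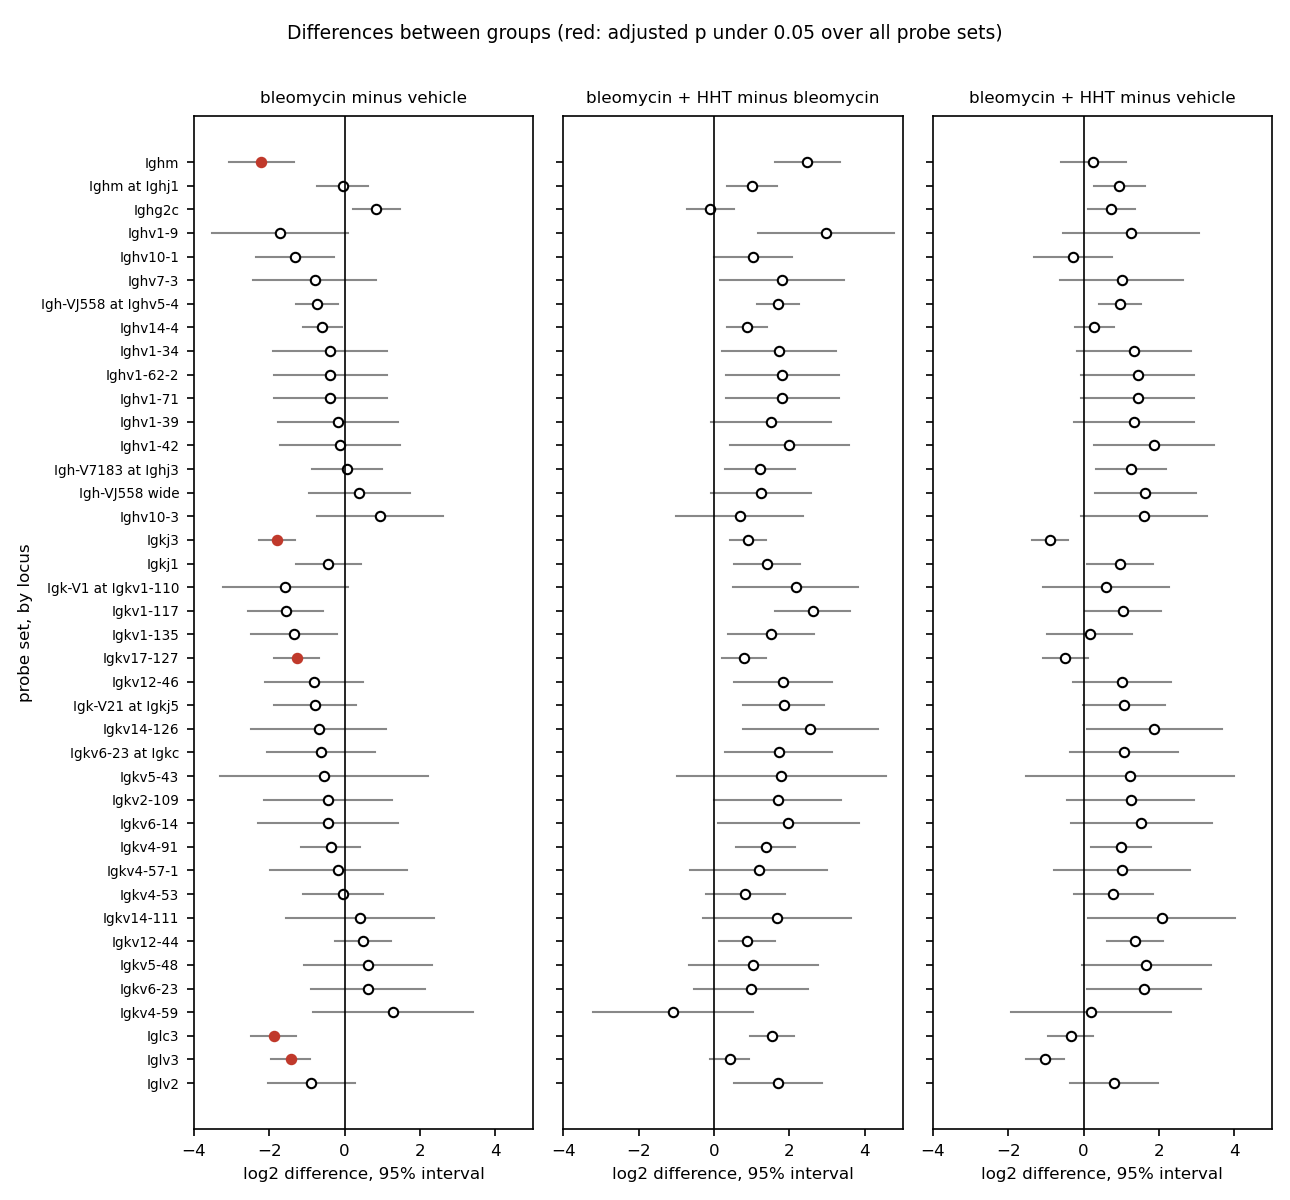
Log2 difference between group means (horizontal axis) with 95% confidence intervals for each of the 40 immunoglobulin probe sets (vertical axis), in 3 panels for bleomycin against vehicle, HHT after bleomycin against bleomycin, and HHT after bleomycin against vehicle. Filled red points passed the adjusted threshold (5 in the first panel); most points lie left of 0 in the first panel (31 of 40) and right of 0 in the second (38 of 40) and the third (35 of 40).

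HHT lungs and vehicle lungs were also set side by side. This comparison shares its HHT arrays with the one above and its vehicle arrays with the first, so the 3 are not independent. No member was called by limma, where 0.506% of all probe sets were. Of the 2010 named probe sets, 2.985% were called higher and 4.378% lower, and 43.48% had a higher mean. At an unadjusted p under 0.05, limma counted 15 members (13 higher and 2 lower), beside 16% of all probe sets, 6.93% higher and 9.09% lower. The authors' deposited table lists 25 members, all higher, among 294 probe sets (0.711% of the array, and 0.368% listed higher). This listing also helped to name the members, so it fills part of the count of higher means that follows. The group mean was higher with HHT for 35 of 40 members (50.6% of all probe sets), and 23 were 2-fold or more higher (0.518%). The median difference was 1.03 over members. It was not alike at each locus: 1.26 for the 16 members of Igh, 1.045 for the 21 of Igk and -0.35 for the 3 of Igl.

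Of the 5 members that fell after bleomycin, Ighm had a higher mean with HHT than with vehicle and the other four a lower one. Ighm stood at 0.26 relative to vehicle (limma adjusted p = 0.781), and its HHT and vehicle ranges overlapped. Iglc3 was at -0.35 (limma adjusted p = 0.547) and Igkv17-127 at -0.48 (limma adjusted p = 0.411). Iglv3 read 4.44, 4.68 and 3.88 with HHT, below its lowest vehicle lung of 5.11, a difference of -1.02 with a limma adjusted p of 0.0890. Igkj3 read 5.85, 5.94 and 5.68, below its lowest vehicle lung of 6.31, a difference of -0.89 with a limma adjusted p of 0.102. Those were the 2 members lower without overlap, and 16 were higher without overlap (11.7% and 9.46% of all probe sets).

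The largest difference from vehicle was at Igkv14-111, which read 3.02, 3.40 and 3.36 with vehicle, 4.81, 3.18 and 3.02 with bleomycin and 6.72, 3.13 and 6.16 with HHT. HHT 1 and 3 were high and HHT 2 lay within the vehicle range (4.21-fold, limma adjusted p = 0.287). In Igkv6-14 as well HHT 1 and 3 were high and HHT 2 was not, with 2.70, 2.35 and 2.70 in vehicle lungs, 2.56, 1.94 and 1.95 in bleomycin lungs and 4.39, 1.95 and 6.01 in HHT lungs. Ighv7-3 read 5.20, 3.09 and 3.61 with vehicle, 4.08, 2.84 and 2.60 with bleomycin and 4.18, 4.37 and 6.38 with HHT. Its vehicle values spanned parts of both other groups, and the lowest HHT lung lay just above the highest bleomycin lung. Iglv2 read 5.49, 5.87 and 5.49 with vehicle, 5.38, 4.53 and 4.30 with bleomycin and 5.16, 6.75 and 7.36 with HHT. Its HHT 1 lay below the vehicle lungs and the other two HHT lungs above them. HHT 3 was the highest of its group for 26 of 40 members (65%), as for 29.49% of all probe sets. Without HHT 3, 10 members instead of 23 were 2-fold or more higher than with vehicle, where 0.443% of all probe sets were. Lower without overlap were then 6 members instead of 2, and 15.5% of all probe sets instead of 11.7%.

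**Figure D4:**
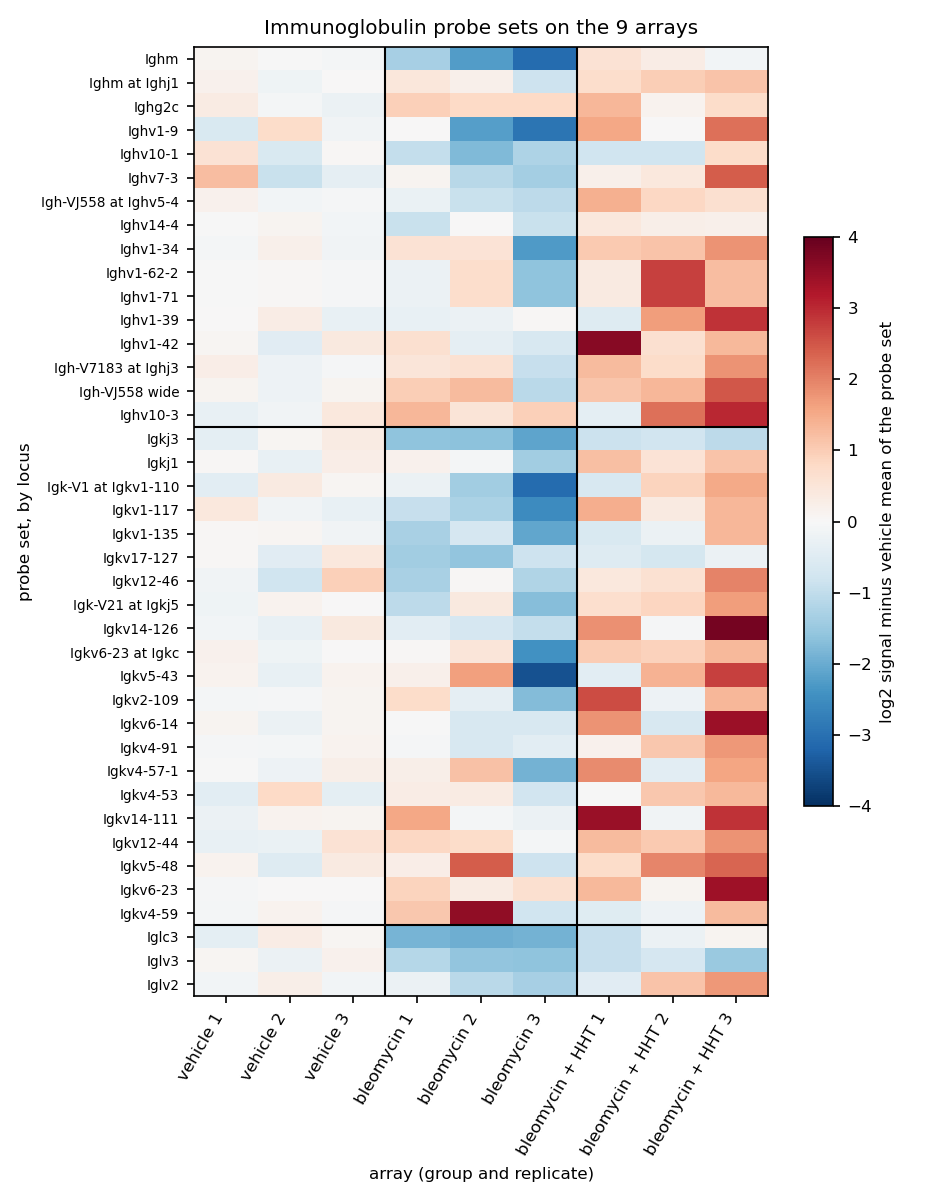
Heat map of the 40 immunoglobulin probe sets (vertical axis, grouped by locus) on the 9 arrays (horizontal axis), coloured by log2 difference from the vehicle mean of the same probe set. The bleomycin 3 column is lower than the other bleomycin columns for 31 of 40 members, and the HHT 3 column is higher than the other HHT columns for 26 of 40.

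The highest mouse of a treated group was not the same for every variable segment, though 1 array led in each treated group. Bleomycin 1 was the highest of its group for 24 of 40 members (34.7% of all probe sets), and HHT 3 for 26 (29.5%). The spread between mice was wide. The median SD over members was 0.23 with vehicle, 0.73 with bleomycin and 0.84 with HHT, where the medians over all probe sets were 0.14, 0.17 and 0.17. An SD above 1 was seen for 1 member with vehicle, 13 with bleomycin and 17 with HHT, beside 0.418%, 0.987% and 0.781% of all probe sets. The members were selected by the authors' listing, and whether that listing favours a wide spread was not tested. The SD of the other named probe sets is not given here, so these values describe the members only. Igkv5-43 was the widest in bleomycin lungs, at 6.11, 7.54 and 2.43, with vehicle lungs at 6.06, 5.62 and 6.04. Ighv1-62-2 and its identical partner Ighv1-71 were highest in HHT 2, at 6.12, 8.49 and 6.99, after 5.54, 6.46 and 4.16 with bleomycin and 5.76, 5.82 and 5.72 with vehicle. Ighv1-34 read 7.20, 7.29 and 7.95 with HHT, 6.72, 6.68 and 3.88 with bleomycin and 6.06, 6.36 and 6.02 with vehicle, with bleomycin 3 the low value. Igk-V21 at Igkj5 read 10.07, 10.24 and 11.05 with HHT, 8.35, 9.79 and 7.71 with bleomycin and 9.22, 9.54 and 9.42 with vehicle, so HHT lungs were above all others. By contrast Iglc3 had an SD of 0.05 in the bleomycin group. Of the 40 members 4 had a mean below the lower quartile of all probe sets. They were Igkv6-14 (2.95), Ighv10-1 (2.82), Ighv1-39 (2.80) and Igkv6-23 (2.46).

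B cell genes were compared with the segments on the same arrays. Of 36 genes of mature B cells, 15 were named in the authors' tables. Like the immunoglobulin members, the genes of this and the lists after it have names only because the authors listed them as changed, so counts of calls among them are descriptions. After bleomycin 13 of the 15 fell by limma and 0 rose, with a median of -1.09. Of all 2010 named probe sets, limma called 47.0% lower and 33.2% higher in that comparison. The mean log2 level of the 15 mature B cell genes was 5.83 to 6.11 in vehicle lungs, 4.57 to 4.80 in bleomycin lungs and 5.15 to 5.35 in HHT lungs. Ms4a1, which encodes CD20, read 6.63, 6.62 and 6.76 with vehicle, 3.65, 4.28 and 4.33 with bleomycin and 5.47, 5.91 and 5.54 with HHT. It fell 5.99-fold after bleomycin (limma adjusted p = 0.000831) and rose 2.94-fold with HHT over bleomycin (limma adjusted p = 0.0448), the 1 gene of the 15 called there. Bank1, a B cell scaffold protein, fell 4.21-fold after bleomycin (limma adjusted p = 0.00151). Pax5, the B lineage transcription factor, fell 3.02-fold (limma adjusted p = 0.00105), and Spib, a factor of the Ets family, fell 2.78-fold (limma adjusted p = 0.00178). In HHT lungs all 15 stood below their vehicle means, and Pax5 (difference -1.16, limma adjusted p = 0.0190) and Spib (difference -1.03, limma adjusted p = 0.0380) were called lower. Markers of other cells moved in the same arrays. After bleomycin, the lung markers Pecam1 (difference -1.03, limma adjusted p = 0.00222) and Sftpa1 (difference -0.90, limma adjusted p = 0.0154) fell. Both named NK cell markers also fell, Gzma by 2.64 (limma adjusted p = 0.00191) and Ncr1 by 1.78 (limma adjusted p = 0.00263). How far the B cell level or these markers took part in the immunoglobulin values was not tested.

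Plasma cell genes were covered by 3 of 28. Jchain, which links the chains of secreted IgM and IgA, read 5.54, 5.85 and 5.81 with vehicle, 6.48, 6.75 and 4.15 with bleomycin and 7.31, 7.16 and 8.55 with HHT. Bleomycin 3 was its lowest array and HHT 3 its highest, as for most immunoglobulin members. Jchain stood 3.68-fold higher with HHT than with bleomycin (limma adjusted p = 0.319) and 3.84-fold higher than with vehicle (limma adjusted p = 0.202), and was not called in any comparison. The list's other two genes had lower means with HHT than with bleomycin and were not called there: Ssr4 differed by -0.62 (limma adjusted p = 0.160) and Trp53inp1 by -0.18 (limma adjusted p = 0.849). Ssr4, a subunit of the translocon-associated complex that many secreting cells use, rose 2.00-fold after bleomycin (limma adjusted p = 0.00657). Trp53inp1, a p53-induced gene of broad expression, was not called (difference 0.70 after bleomycin, limma adjusted p = 0.138).

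Of 10 receptors that bind or carry antibody, 5 were named. After bleomycin 4 of these rose and 1 fell by limma. Fcgr3 rose 3.13-fold (limma adjusted p = 0.00220) and Fcgr2b, the inhibitory Fc gamma receptor, rose 3.02-fold (limma adjusted p = 0.00231). Fcer1g, the signalling chain shared by Fc receptors, rose 2.08-fold (limma adjusted p = 0.00458). Pigr, which carries IgA and IgM across epithelium, fell 2.04-fold (limma adjusted p = 0.00323). None of the 5 was called with HHT against bleomycin or against vehicle in limma. The Fc receptor genes of this list are also made by macrophages, and the 3 named macrophage markers (Cd68, Marco and Adgre1) all rose after bleomycin. How far macrophages took part in the receptor values was not tested.

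Cxcl13, the chemokine that draws B cells into follicles, rose 2.96-fold after bleomycin (limma adjusted p = 0.0325), whereas Tnfsf13b, the survival factor BAFF, fell 1.66-fold (limma adjusted p = 0.0252). These were the 2 named of 13 such factors. Of 18 switching and germinal centre genes 3 were named, of which Mki67, a marker of cycling cells of any type, rose 2.05-fold (limma adjusted p = 0.0195) and Bcl6 fell 1.94-fold (limma adjusted p = 0.0226). The 7 T cell receptor segments, rearranged by the same enzymes in T cells, had a median of -1.12 after bleomycin, and 4 fell by limma. Among them Trbj1-1 fell 3.92-fold (limma adjusted p = 0.00370) and Trgj4 fell 2.36-fold (limma adjusted p = 0.0107). With HHT against bleomycin all 7 were higher, at a median of 0.60, and 0 were called by limma. Against vehicle all 7 were lower, at a median of -0.55, with 0 called, while the immunoglobulin median in that comparison was 1.03. The difference between these lists was not tested.

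The authors' deposited tables list more members than limma called in all 3 comparisons, from the same log2 values. In the authors' deposited table Ighv1-9 has a fold of 7.81 with HHT against bleomycin and an adjusted p listed as 0, and limma gave 0.202. In the same authors' deposited table Ighm has a fold of 5.54 and an adjusted p of 1.05e-11, and limma gave 0.0682. For bleomycin against vehicle the authors' deposited table lists 17 members, 3 higher and 14 lower (5.02% of the array is listed, 2.19% higher and 2.82% lower), and limma called 5.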

How the data were processed

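Total RNA of 9 whole lung samples was labelled with biotin and hybridised to Affymetrix arrays, 1 array a sample. The deposited values are log2 signals of 41345 probe sets. The submitters' processing notes name R 3.5.1 and Affymetrix Power Tools. Neither the normalization nor the genome build is stated in any source used here. The authors deposited 3 tables of listed probe sets with signed fold changes and adjusted p-values, per the file headers from a local pooled error test. Of their log2 values, 14904 were compared with the value table and the largest difference was 0.

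A group-means model over the 9 arrays was fitted to all probe sets with limma 3.58.1 (R 4.3.3; lmFit and eBayes, 2-sided, Benjamini-Hochberg over all probe sets, threshold 0.05), with no filter on dim probe sets. It was tested on simulated data. SE and SD are on the log2 scale, n = 3 a group. Non-overlap means that all 3 values of 1 group exceed all 3 of the other. Positions were set on RefSeq GRCm38.p6 for names only.

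All 9 values are given for constant regions and for up to 6 variable segments a locus with the largest absolute difference. Other genes are named up to 4 a list, by smallest limma p in bleomycin against vehicle. Members and lists were chosen with earlier results of these data known. Of 18 T cell genes listed, 0 were named in the tables. Alternatives were a 2-group fit, a replicate block, a filter on dim probe sets, array weights, a trended robust prior, quantile normalization, median centring, 1 probe set a symbol, only cross-hybridisation type 1, and leaving out each array.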

Additional observations from a re-analysis of the deposited data

How the results depend on the processing

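Neither the medians over members nor the differences of the few members followed singly changed direction. Other members did change sign: without bleomycin 3, 20 members instead of 9 had a higher mean than with vehicle (52.2% of all probe sets instead of 52.5%). Ighm, Iglc3, Iglv3 and Igkj3 kept their bleomycin calls in all 16 settings, and Igkv17-127 lost its call in 5, among them the fit of the 6 compared arrays (limma adjusted p = 0.0540). Among type 1 members alone, 3 of 16 were called lower after bleomycin. With the filter on dim probe sets, 1 member, Igh-VJ558 at Ighv5-4, was called for HHT against bleomycin (limma adjusted p = 0.0449). Leaving out 1 array gave 4 to 7 calls for bleomycin against vehicle, 0 to 2 for HHT against bleomycin and 0 to 1 for HHT against vehicle. The last were Igkv6-23 at Igkc without bleomycin 3 (limma adjusted p = 0.0482) and Ighv10-3 without HHT 1 (limma adjusted p = 0.0417). The medians over members ranged from -0.74 to -0.11, from 1.03 to 1.64 and from 0.74 to 1.20. The labels do not say that array numbers pair the mice. Deviations of same-numbered arrays correlated between -0.14 and 0.09, and those of other arrays between -0.06 and 0.11, which does not settle whether they were paired. The replicate block gave 6, 0 and 0 calls. The shares of all probe sets called in these settings are not given here, so the counts of calls describe the members only. Alternatives that left out an array for the counts without overlap or past 2-fold were chosen after seeing the data.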
